A study of Mus musculus with 10 samples.

Results

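The 41 genes described here encode the heat shock chaperones of the cytosol and mitochondria, together with their co-chaperones and the transcription factors Hsf1 and Hsf2. They were chosen by gene symbol, and all 41 were among the 17945 named genes of the table. Of these, 39 reached a normalized count of 10 in 5 or more libraries and were tested. Cryab and Hsf1 did not reach that level. The set is not purely cytosolic and mitochondrial, since Hspa13 encodes an Hsp70-like protein associated with microsomes.

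RNA was sequenced from pancreatic islets of 18-week-old C57BL/6 mice in 10 libraries. By the labels, the 5 knockout libraries came from mice with Pdx1-CreER and Grk5 flox/flox alleles, and the 5 control libraries from mice with Grk5 flox/flox alone, so floxed Grk5 is shared by both groups. Pdx1-CreER is a tamoxifen-inducible Cre recombinase under a Pdx1 promoter, and tamoxifen treatment is not described in the labels. Grk5 encodes a G protein-coupled receptor kinase, which the series title ties to β-cell proliferation through HDAC5. Whether a library is 1 animal or a pool is not stated, so the p-values describe spread among these 10 libraries, which may be technical.

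Chaperones bind unfolded stretches of other proteins and help them to fold, to assemble or to be handed on for degradation. Hsp70 proteins work in cycles of ATP hydrolysis that J-domain proteins start and that nucleotide exchange factors, such as Hsp110 and BAG proteins, complete. Hsp90 receives clients from Hsp70, and the ring-shaped chaperonins fold proteins inside a closed chamber. Some of these genes are switched on by heat or proteotoxic stress through HSF1, which binds repeats of the letters GAA and TTC, while others are expressed in all cells at rest. Islet isolation is itself a stress, and the β cell makes large amounts of secreted protein in the endoplasmic reticulum, whose own chaperones are separate from those described here.

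Normalized totals per library ran from 5534390 to 7358040, with 10222 to 14632 genes above 0. Knockout 1 held the fewest genes, and its median correlation with other libraries was the lowest at 0.718. Taken as 1 read, the commonest low value of each library would put depth between 2072840 and 10951000 reads, but most values were not whole multiples of it, so depth is an estimate. Values midway between 2 multiples made up 10.2% to 11.9% of controls 2, 3 and 5, and at most 1.44% of any other library. Grk5 was 269.8, 129.9, 94.4, 207.0 and 105.5 in knockouts 1 to 5, against 197.0, 165.0, 386.9, 331.8 and 127.9 in controls 1 to 5, so the groups overlapped at the targeted gene. Esr1, part of which is carried by CreER, was 1516.7 to 3176.8 in the knockouts, and 2495.0 and 773.5 in controls 2 and 5 against 0.0 to 10.5 in the other controls. The Esr1 values of the libraries labelled controls 2 and 5 thus go against their labels, which are used here as given, and the main results are also given without them. Ins1 and Ins2 took 12.3% to 17.8% of each library. The summed acinar markers, digestive enzyme genes of the tissue around islets, ran from 38413 to 103281 in knockouts and from 25429 to 328520 in controls.

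The promoters of several members carry the letters that HSF1 binds, and 3 sets are shown because they bear on the comparisons that follow. Sequences are from RefSeq on GRCm38.p6 and run from 250 bases before to 50 bases after a transcript start. The motifs searched were GAANNTTC and TTCNNGAA, a pair of repeats, and the form with 3 repeats, GAA, TTC and GAA or TTC, GAA and TTC, each separated by NN. Each pair reads the same on both strands, the forms with 3 repeats are each other's reverse complement, and every match with 3 repeats contains both pairs. Capitals mark the matches. Hspa1a (chr17:34972107-34972406, minus strand) and Hspa1b (chr17:34959189-34959488, minus strand), the neighbouring stress-induced Hsp70 genes, matched at 296 of 300 positions and had 1 pair each, 104 to 97 bases before the start.
Hspa1a: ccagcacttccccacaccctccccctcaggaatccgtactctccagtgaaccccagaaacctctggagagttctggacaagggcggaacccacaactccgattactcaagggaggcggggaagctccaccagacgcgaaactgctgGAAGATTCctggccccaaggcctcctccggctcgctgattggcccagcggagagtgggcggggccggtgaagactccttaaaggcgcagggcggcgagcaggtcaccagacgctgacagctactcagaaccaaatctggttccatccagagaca
Hspa1b: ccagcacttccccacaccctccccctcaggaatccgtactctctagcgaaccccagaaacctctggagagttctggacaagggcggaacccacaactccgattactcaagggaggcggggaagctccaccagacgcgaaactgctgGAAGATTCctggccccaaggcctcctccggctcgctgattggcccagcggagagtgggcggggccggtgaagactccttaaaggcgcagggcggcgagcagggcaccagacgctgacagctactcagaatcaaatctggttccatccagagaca
Hspe1 and Hspd1, which encode the mitochondrial chaperonin subunits Hsp10 and Hsp60, are transcribed away from each other from a shared region, and their windows overlap by 285 bases. The Hspe1 window (chr1:55087898-55088197, plus strand) held 3 overlapping pairs, which form 2 overlapping matches with 3 repeats.
Hspe1: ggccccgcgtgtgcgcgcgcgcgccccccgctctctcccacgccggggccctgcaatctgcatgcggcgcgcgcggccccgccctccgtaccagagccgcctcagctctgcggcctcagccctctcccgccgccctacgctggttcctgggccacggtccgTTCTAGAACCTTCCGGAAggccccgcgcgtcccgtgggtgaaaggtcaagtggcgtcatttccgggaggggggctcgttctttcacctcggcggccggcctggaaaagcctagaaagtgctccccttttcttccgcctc
The first Dnaja1 window (chr4:40722218-40722517, plus strand) held 1 pair, and its other 2 windows held none.
Dnaja1: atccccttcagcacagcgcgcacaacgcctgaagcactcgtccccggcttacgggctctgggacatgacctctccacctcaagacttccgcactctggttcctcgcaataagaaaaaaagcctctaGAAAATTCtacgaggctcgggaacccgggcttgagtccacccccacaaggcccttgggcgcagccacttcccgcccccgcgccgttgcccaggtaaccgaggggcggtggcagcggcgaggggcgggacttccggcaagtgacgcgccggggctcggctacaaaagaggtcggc

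Of the 41 members, 33 matched a promoter window, and Hspa8, Hsp90aa1, Hsp90ab1, Hspa9, Hspa13, Dnajc5, Cryab and Hsf1 had no entry. A pair was found for 14 of the 33 genes (42.4%), against 17% of all 27025 genes with a window. By class, it was found for 9 of 11 stress-induced members and 5 of 14 constitutive members. The form with 3 repeats was found for Hspd1, Hspe1, Hsph1 and Dnajb6, 4 of 33 (12.1%), against 0.662% of all genes. By class, this form went the other way. It was found for 1 of 11 stress-induced members, Hsph1, and 3 of 14 constitutive members, Hspd1, Hspe1 and Dnajb6. These matches are descriptions of letters in a short window, not of binding.

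Per kilobase of its longest protein-coding transcript (GENCODE M21), Hspa8, the constitutive cytosolic Hsp70, had the highest level of the 41. It averaged 6669 ± 944 normalized counts per kb in knockouts and 8573 ± 1532 in controls (SD, n = 5 each). Next came Hsp90ab1, the constitutive cytosolic Hsp90, at 4605 ± 277 per kb in knockouts and 5374 ± 465 in controls. Its stress-induced counterpart Hsp90aa1 was at 2771 ± 631 and 3348 ± 867 per kb in the same order. Hspa1a and Hspa1b, whose products are induced by heat, came next, with medians over all libraries of 2400 and 2321 per kb. Dnajb1, their J-domain partner Hsp40, followed with a median of 1153 per kb. Stress-induced genes were therefore among the most abundant members in both groups of islets. At the other end, Hsph1, Cryab and Hsf1 had medians of 2.35, 0.0 and 0.0 per kb, and Cryab and Hsf1 were each listed at 0 in 8 libraries.

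**Figure D1:**
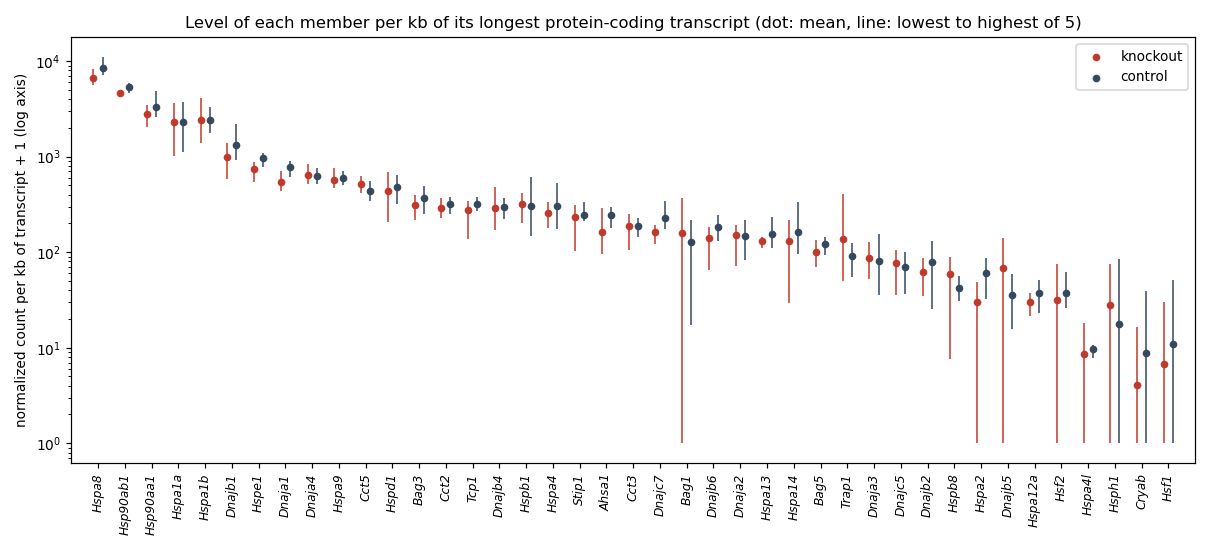
Level of each of the 41 members, as normalized count per kb of the longest protein-coding transcript plus 1 on a log axis. Dots are group means and lines run from the lowest to the highest of 5 knockout (red) and 5 control (dark) libraries. Hspa8 and Hsp90ab1 lead in both groups, and the 2 lines overlap for every member.

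The comparison of knockouts with controls asks whether the labelled groups differ in the level of these chaperones. By the labels only the knockouts carry Pdx1-CreER, so loss of Grk5 and presence of CreER cannot be told apart. Loss of Grk5 is also not shown by its own values, which overlapped between the groups. No member passed at an adjusted p under 0.05 by limma over all 11711 genes (background 0%), and the smallest adjusted p among members was 0.942. The same fit called 0 of all genes. At an unadjusted p under 0.05, 3 of the 39 members had lower values in the knockouts and 0 had higher values. Among all genes tested 5.01% reached that level, 2.66% lower and 2.36% higher. The 3 were Dnaja1, Hspa8 and Hsp90ab1. Of the 39, 28 had negative and 11 positive log2 differences (knockout minus control), with a median of -0.21, beside 52.4% lower and a median of -0.03 over all genes tested. Without control 5 the members' median was -0.13, with 26 of 39 lower, beside 53.7% of all genes and their median of -0.05. Without controls 2 and 5 it was -0.077, with 29 of 39 lower, beside 53.6% and -0.05 for all genes. With the mean of the immediate early genes as a covariate, the members' median was -0.10 and 23 of 39 were lower. That covariate also moved all genes tested, to 47.6% lower and a median of 0.04. By limma without controls 2 and 5, only Dnaja1 among the members kept its unadjusted p under 0.05. The groups overlapped for every one of the 39 members, while 0.862% of all genes had groups that did not overlap.

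**Figure D2:**
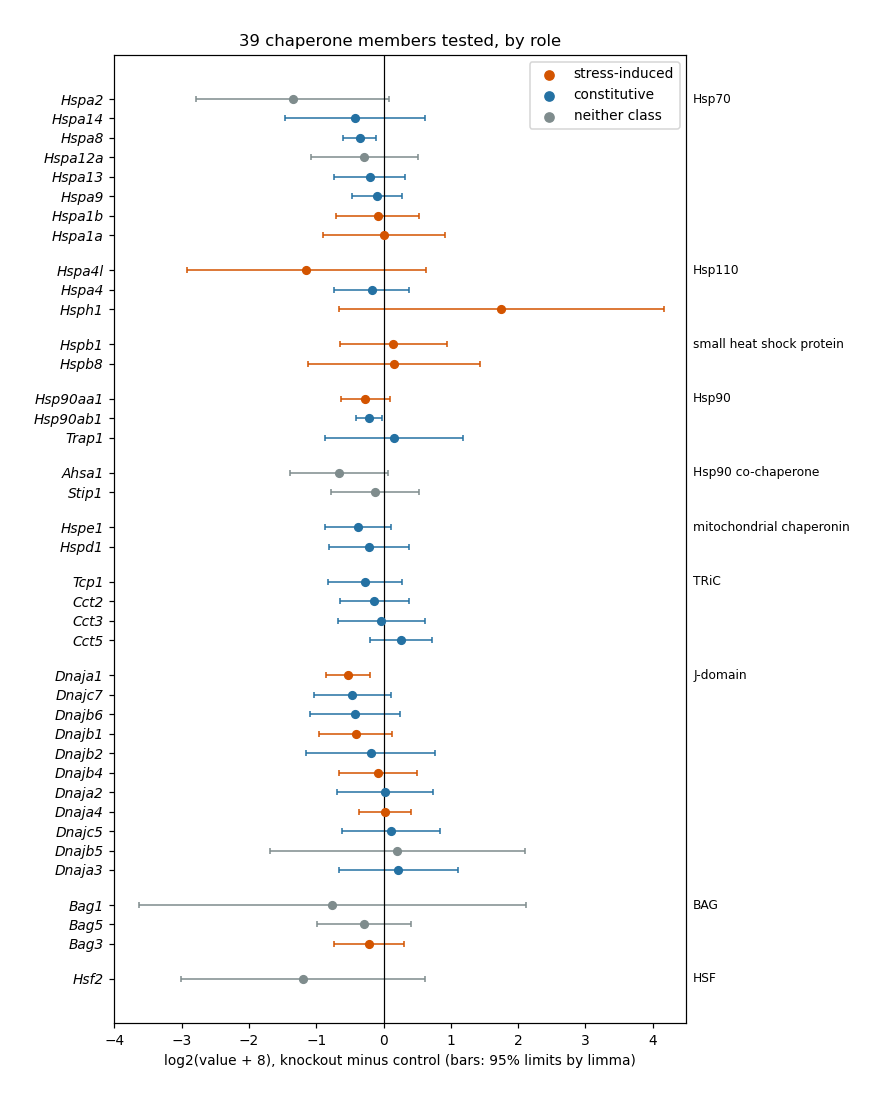
Log2 difference, knockout minus control, of log2(value + 8) for each of the 39 members tested, with 95% limits by limma, grouped by role and coloured by class. The limits of Dnaja1, Hspa8 and Hsp90ab1 lie below 0, and those of the other 36 members include 0.

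Hspa8 (Hsc70, chromosome 9, 40800984 to 40810087 on GRCm38) folds newly made proteins, uncoats clathrin vesicles and takes part in chaperone-mediated autophagy. Its normalized counts were 13619.6, 15655.8, 19586.7, 14695.6 and 16272.6 in knockouts 1 to 5, against 20451.3, 19545.8, 17275.2, 18608.6 and 26741.1 in controls 1 to 5. Knockouts 1, 2, 4 and 5 lay below every control, and knockout 3 lay above controls 2, 3 and 4. The log2 difference was -0.36 ± 0.12 (SE, 95% limits -0.60 to -0.11; unadjusted p = 0.00640, adjusted p = 0.942 by limma). It was -0.26 without control 5 and -0.43 without knockout 3, and without controls 2 and 5 it was -0.24 with an unadjusted p of 0.0667 by limma. The small nucleolar RNA genes Snord14c, Snord14d and Snord14e lie within Hspa8 on the same strand, the gene has processed pseudogenes elsewhere in the mouse genome, and how reads shared with either were counted is not stated.

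The other 7 Hsp70 genes had log2 differences between -1.35 and 0.01, none at an unadjusted p under 0.05 by limma. The adjacent stress-induced pair Hspa1a and Hspa1b (chromosome 17, 9951 bases apart) encodes nearly the same protein. Of 1926 aligned coding bases, 1918 are identical. Reads may therefore be divided between them arbitrarily or left uncounted, and how shared reads were handled is not stated. The sum is given as well as each gene. Hspa1a was 3042.1, 5195.9, 7229.9, 8057.5 and 10787.9 in knockouts 1 to 5, against 7014.4, 3350.0, 7300.4, 5123.8 and 11032.7 in controls 1 to 5. Hspa1b was 4366.2, 3847.7, 7014.2, 6798.9 and 11582.4 in knockouts, against 6213.6, 5003.4, 7543.2, 5752.4 and 9323.7 in controls. Both genes were highest in knockout 5 among knockouts and in control 5 among controls, 2 libraries that are not paired. The groups overlapped over most of their range. The 2 genes together averaged 13585 ± 5874 in knockouts and 13532 ± 4535 in controls (SD, n = 5 each). The ratio of Hspa1a to Hspa1b ran from 0.697 to 1.35 in knockouts and from 0.670 to 1.18 in controls. The log2 differences were 0.01 ± 0.40 and -0.09 ± 0.28 (SE), with 95% limits of -0.90 to 0.92 for Hspa1a and -0.71 to 0.53 for Hspa1b.

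Hspa9 (mortalin), the Hsp70 of the mitochondrial matrix, averaged 1733 ± 374 in knockouts and 1839 ± 236 in controls (SD, n = 5 each). Hspa13 was 545 ± 67.2 in knockouts and 648 ± 202 in controls. Hspa14, a ribosome-associated Hsp70, was 235 ± 137 and 291 ± 178 in the same order, and a second annotated gene overlaps it on the same strand. The log2 differences of these 3 were -0.10, -0.21 and -0.42, each with 95% limits that include 0. Hspa12a, a divergent relative expressed in brain, was 117.1 to 209.4 in knockouts and 126.8 to 285.3 in controls. Hspa2, known for its role in sperm formation, was 99.4, 0.0, 59.1, 120 and 86.5 in knockouts 1 to 5, against 189.8, 80, 103.1, 219.7 and 163.8 in controls 1 to 5. Its log2 difference was -1.35 ± 0.69 (SE, unadjusted p = 0.0638 by limma), and -0.63 without knockout 2, which was listed at 0.

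The Hsp110 proteins recharge Hsp70 by nucleotide exchange. Hspa4 (Apg-2), the constitutive one, was 818.0, 1222.5, 1546.0, 1285.9 and 996.2 in knockouts 1 to 5, against 1031.9, 1191.1, 1519.3, 2461.0 and 796.8 in controls 1 to 5. The controls were both the lowest and the highest libraries, with all knockouts between controls 5 and 4, and the log2 difference was -0.18 ± 0.27 (SE). Hspa4l was 0.0, 162.1, 148.2, 0.0 and 52.8 in knockouts 1 to 5, against 84.8, 87.5, 64.7, 92.8 and 77.0 in controls 1 to 5. The knockouts lay on both sides of the narrow control range. Hsph1 (Hsp105) was 284.0, 156.5, 49.6, 0.0 and 17.9 in knockouts 1 to 5, against 0.0, 0.0, 0.0, 315.2 and 0.0 in controls 1 to 5. Thus 4 knockouts and 1 control were above 0, and the highest value belonged to that control. Its log2 difference of 1.75 ± 1.14 (SE) had 95% limits from -0.67 to 4.17, and an unadjusted p of 0.144 by limma. The difference depended on which libraries were kept, at 2.82 without control 4 and 0.15 without controls 2, 3 and 5.

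Small heat shock proteins hold unfolding proteins without ATP. Hspb1 (Hsp25 in mice) was 262.7, 188.6, 376.0, 390.5 and 249.0 in knockouts 1 to 5, against 136.6, 566.7, 226.7, 255.5 and 238.9 in controls 1 to 5. The controls were both the lowest and the highest libraries, and the log2 difference was 0.14 ± 0.38 (SE). Hspb8, which works with Bag3 in selective autophagy, was 85.3, 12, 158.0, 139.3 and 127.7 in knockouts 1 to 5, against 71.6, 62.3, 88.6, 54.4 and 99.8 in controls 1 to 5. Knockouts 3, 4 and 5 lay above every control and knockout 2 below. Cryab, the lens and muscle chaperone αB-crystallin, was listed at 0 in 8 libraries and at 17.4 in knockout 3 and 43.2 in control 4. It overlaps Hspb2 on the opposite strand.

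Hsp90ab1 (chromosome 17, 45567775 to 45573271) varied least between libraries of a group among the 39 members. Its counts were 11748.8, 12452.5, 12016.0, 11077.9 and 10729.6 in knockouts 1 to 5, against 13609.1, 14809.8, 11766.6, 13209.4 and 14321.5 in controls 1 to 5. Controls 1, 2, 4 and 5 lay above every knockout, while control 3 lay among the knockouts. The log2 difference was -0.22 ± 0.09 (SE, 95% limits -0.41 to -0.03; unadjusted p = 0.0256, adjusted p = 0.942 by limma). The unadjusted p was 0.132 with scaling by library totals and 0.201 without controls 2 and 5, where the difference was -0.15. Hsp90aa1 was 6675.8, 10031.7, 11516.5, 7189.9 and 10041.4 in knockouts 1 to 5, against 9544.7, 10869.6, 8452.2, 10243.4 and 15816.2 in controls 1 to 5. The control range was widened by control 5, and the log2 difference was -0.27 ± 0.17 (SE, unadjusted p = 0.139 by limma). It was -0.13 without control 5, -0.17 without knockout 1 and -0.077 without controls 2 and 5. Trap1, the mitochondrial Hsp90, was 948.8 in knockout 1 and 112.8 to 202.0 in the other 4 knockouts, against 126.6 to 285.5 in controls.

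Both Hsp90 co-chaperones among the members had lower means in the knockouts. Ahsa1, which activates the Hsp90 ATPase, was 209.4, 156.5, 394.5, 131.7 and 226.9 in knockouts 1 to 5, against 303.3, 346.0, 398.1, 405.3 and 246.8 in controls 1 to 5. Knockouts 1, 2, 4 and 5 lay below every control, and knockout 3 did not. Its log2 difference was -0.66 ± 0.35 (SE, unadjusted p = 0.0716 by limma). Stip1 (Hop), which bridges Hsp70 and Hsp90, was 468.6, 468.0, 658.1, 214.1 and 652.1 in knockouts 1 to 5, against 442.8, 440.4, 495.1, 466.9 and 707.0 in controls 1 to 5. Its groups overlapped almost fully, and the log2 difference was -0.13 ± 0.31 (SE).

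Dnaja1 (chromosome 4, 40722150 to 40737149), a J-domain partner of Hsc70, had the smallest p of the members. Its counts were 2441.1, 4020.9, 2709.8, 2958.2 and 2997.9 in knockouts 1 to 5, against 5100.5, 4549.6, 3415.6, 3925.7 and 4814.0 in controls 1 to 5. Knockouts 1, 3, 4 and 5 lay below every control, and knockout 2 lay above controls 3 and 4. The means were 3026 ± 599 and 4361 ± 684 (SD, n = 5 each, knockouts first), a log2 difference of -0.53 ± 0.16 (SE, 95% limits -0.86 to -0.20). In the limma model its p was 0.00304, and 0.942 after adjustment over all genes. With single libraries left out the difference ran from -0.64 to -0.46, and it was -0.45 without controls 2 and 5. The gene Smu1 overlaps Dnaja1 on the opposite strand. The authors' deposited table lists log2 fold changes of -0.53 for Dnaja1 (adjusted p = 0.444) and -0.36 for Hspa8 (adjusted p = 0.702), the 2 members with its lowest p-values.

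Among the other 10 J-domain genes, 5 had negative and 5 positive log2 differences, none of them at an unadjusted p under 0.05 by limma. Dnajb1 was 1732.3, 2239.6, 3581.2, 3326.5 and 4134.1 in knockouts 1 to 5, against 3837.1, 2756.5, 3597.6, 3205.7 and 6638.8 in controls 1 to 5. Control 5 stood far above the other controls, and 2 knockouts lay below all of them. Its log2 difference was -0.42 ± 0.26 (SE), and it was -0.22 without control 5, -0.24 without knockout 1 and 0.01 with the mean of the immediate early genes as a covariate. Dnajc7, which has tetratricopeptide repeats and binds Hsp70 and Hsp90, averaged 379 ± 62.1 in knockouts and 535 ± 155 in controls (SD, n = 5 each), and the neuronal and secretory vesicle chaperone Dnajc5 501 ± 195 and 454 ± 155 in the same order. Dnaja4 was 1926 ± 409 in knockouts and 1880 ± 333 in controls, and Dnajb4 719 ± 295 and 728 ± 145. Dnajb6, which holds back polyglutamine aggregation, was 413 ± 153 in knockouts and 529 ± 123 in controls. Dnaja2, the mitochondrial Dnaja3 and the ubiquitin-binding Dnajb2 had log2 differences of 0.02, 0.22 and -0.19, with 95% limits that include 0. Dnajb5 was 0.0, 462.3, 118.1, 190.6 and 345.9 in knockouts 1 to 5, against 48.9, 77.5, 192.8, 103.9 and 143.6 in controls 1 to 5, so that knockouts were both the lowest and the highest libraries.

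**Figure D3:**
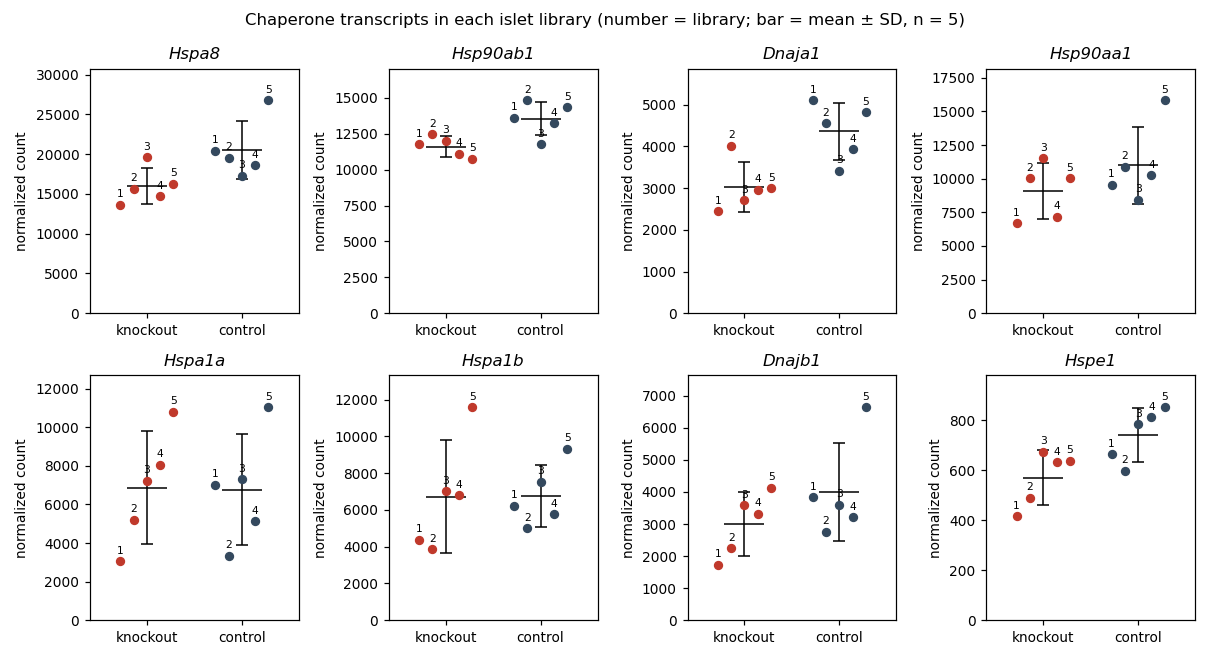
Normalized counts of 8 members in each library, with knockouts left of controls, the library number beside each point, and bars for the mean ± SD (n = 5). For Hspa8 and Dnaja1, 4 of 5 knockouts lie below every control. Hspa1a, Hspa1b and Dnajb1 are highest in knockout 5 and in control 5, and library numbers do not pair the groups.

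The mitochondrial chaperonin was lower in mean for both subunits. Hspe1 (Hsp10) was 416.1, 490.8, 673.6, 631.6 and 638.5 in knockouts 1 to 5, against 663.1, 597.1, 783.5, 812.1 and 851.5 in controls 1 to 5, and controls 3, 4 and 5 lay above every knockout. Its log2 difference was -0.39 ± 0.23 (SE, unadjusted p = 0.118 by limma), and -0.08 with the immediate early covariate. Hspd1 (Hsp60), which shares the start region printed above, was 495.8, 1005.5, 993.4, 1672.6 and 1064.1 in knockouts 1 to 5, against 765.6, 1546.4, 916.2, 1305.8 and 1344.6 in controls 1 to 5. The highest library was knockout 4, and the log2 difference was -0.22 ± 0.28 (SE). The 2 genes overlap by 112 bases on opposite strands, and the library kit keeps strand, but the strand setting of the counting is not stated.

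The cytosolic chaperonin TRiC folds actin and tubulin in a ring of 8 different subunits, 4 of which are members. Cct5 was 1165.8, 767.0, 982.0, 799.5 and 1091.8 in knockouts 1 to 5, against 632.5, 798.5, 1033.0, 846.6 and 699.8 in controls 1 to 5. The highest libraries were knockouts 1 and 5 and the lowest controls 1 and 5, and the log2 difference was 0.26 ± 0.22 (SE). Tcp1 was 333.3, 844.4, 782.5, 708.6 and 703.6 in knockouts 1 to 5, against 694.0, 742.2, 655.7, 918.3 and 928.2 in controls 1 to 5. Knockout 1 stood apart below all the others. Cct2 and Cct3 averaged 561 ± 113 and 370 ± 122 in knockouts, against 617 ± 119 and 367 ± 66.6 in controls (SD, n = 5 each). The other 4 subunits were on the list of further chaperone genes. Cct4 was 335.2, 765.7, 285.8, 413.9 and 572.0 in knockouts 1 to 5, against 167.3, 217.9, 402.2, 257.8 and 226.8 in controls 1 to 5, a log2 difference of 0.85 ± 0.34 (SE, unadjusted p = 0.0230, adjusted p = 0.942 by limma). Cct6a, listed at 0 in knockout 1, Cct7 and Cct8 had log2 differences of -0.90, -0.83 and -0.11. Over all 8 subunits, 6 were lower and 2 higher, with a median log2 difference of -0.12.

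BAG proteins release substrates from Hsp70. Bag3, the stress-induced one, was 791.6, 1022.7, 547.4, 748.1 and 896.9 in knockouts 1 to 5, against 1176.0, 896.8, 755.1, 634.2 and 1253.3 in controls 1 to 5. Bag5 was 225.5, 244.6, 167.1, 148.4 and 285.1 in knockouts 1 to 5, against 259.9, 306.9, 240.3, 199.3 and 289.4 in controls 1 to 5. For both genes the lowest library was a knockout and the highest a control, with overlap between. Bag1 was 0.0, 0.0, 268.1, 498.7 and 286.2 in knockouts 1 to 5, against 21.7, 289.6, 220.1, 59.1 and 264.3 in controls 1 to 5, with high and low libraries in both groups. Hsf2, a transcription factor that acts with HSF1, was 0.0, 67.1, 132.4, 195.3 and 0.0 in knockouts 1 to 5, against 106.4, 75.1, 158.1, 68.0 and 65.3 in controls 1 to 5. Hsf1 itself was listed at 61.2 in knockout 4, 105.3 in control 3 and 0 elsewhere. HSF1 activity is known to be regulated largely after transcription.

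Stress-induced and constitutive members were compared as classes set from textbook knowledge. Of 12 stress-induced members tested, 7 were lower and 5 higher in knockouts, with a median log2 difference of -0.09. The 19 constitutive members had a median of -0.19, with 14 below 0 and 5 above, and that median was -0.12 without knockout 1. The 8 members of neither class had a median of -0.48, and 7 of them were lower. Among these 8, Hspa2, Dnajb5, Bag1 and Hsf2 were listed at 0 in 1 or 2 knockouts and in no control. Bag1 was lower on the log scale, though its mean was 211 in knockouts and 171 in controls. The authors' deposited log2 fold changes were -1.06 for Hspa2, 0.98 for Dnajb5, 0.30 for Bag1 and -0.26 for Hsf2. The medians of the 2 classes differed by 0.10, stress-induced minus constitutive, and by 0.083 without controls 2 and 5. That sign turned with Hspa8, Hspd1, Hspe1, Stip1 and Ahsa1 counted as stress-induced (-0.06), without knockout 5 (-0.04) and without control 2 (-0.02). The median of the stress-induced members turned to 0.08 without knockout 2 and to 0.02 without control 5. Per library, the mean log2 value of the stress-induced members ran from 9.46 (knockout 4) to 10.07 (knockout 3) in knockouts and from 9.65 (control 3) to 10.08 (control 5) in controls. That of the constitutive members was 9.29, 9.46, 9.50, 9.46 and 9.42 in knockouts, against 9.48, 9.62, 9.55, 9.58 and 9.65 in controls. For the constitutive members only knockout 3 lay above the lowest control, while for the stress-induced members knockouts 1 and 4 lay below every control and the other 3 knockouts within the control range. The difference between the classes was 0.34 ± 0.26 in knockouts and 0.24 ± 0.18 in controls (SD, n = 5 each).

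**Figure D4:**
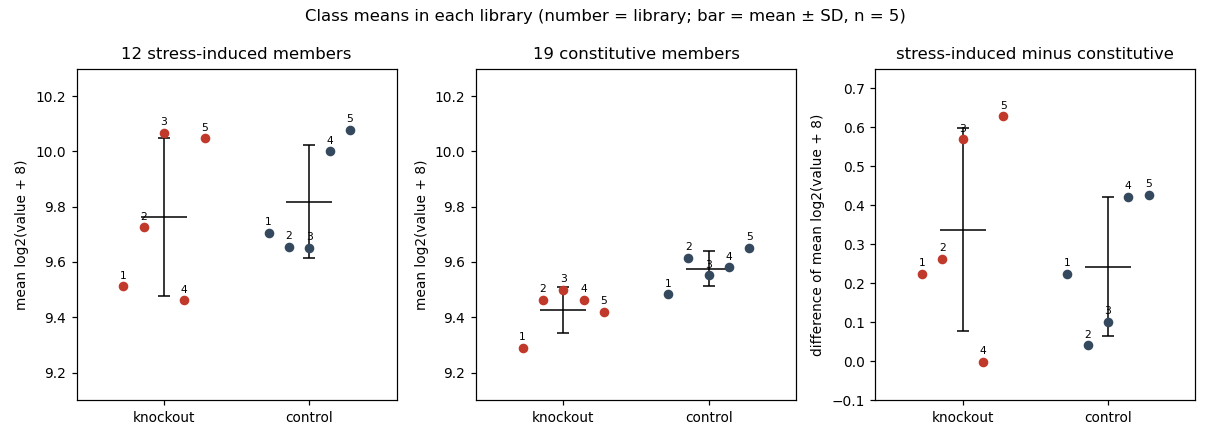
Mean log2(value + 8) of 12 stress-induced members, of 19 constitutive members, and their difference, in each library, with knockouts left of controls and bars for the mean ± SD (n = 5). The constitutive means lie between 9.29 and 9.50 in knockouts and between 9.48 and 9.65 in controls, and the stress-induced means overlap widely.

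The members also differed in how steady they were within a group. The pooled within-group SD of log2 values was 0.11 for Hsp90ab1, 0.22 for Hspa8, 0.24 for Hspa9 and 0.25 for Dnaja1. It was 0.51 for Hspa1b and 0.67 for Hspa1a, and 2.24 and 2.36 for Hsph1 and Bag1. The class medians were 0.50 for stress-induced and 0.41 for constitutive members, beside 0.84 for all genes tested, most of which are less abundant. Hspa1a, Hspa1b, Dnajb1, Dnajb4, Dnajb6, Dnajb2 and Hspa13 were each highest in knockout 5 among knockouts and in control 5 among controls, 7 of 39 members (17.9%), against 4.82% of all genes tested. Of these, 4 are stress-induced. This count was chosen after the values were seen, and the shared number 5 is not a pairing. Library numbers only order the libraries within a group. Hspa1a and Hspa1b, which may share reads, are both in this count. The 41 members together took 0.798% of the normalized total in knockout 1 and 1.24%, 1.39%, 1.11% and 1.29% in knockouts 2 to 5, against 1.21%, 1.30%, 1.27%, 1.14% and 1.70% in controls 1 to 5. Knockout 1, with the fewest genes above 0, was also the library listed at 0 for most members, 6 of 41.

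**Figure D5:**
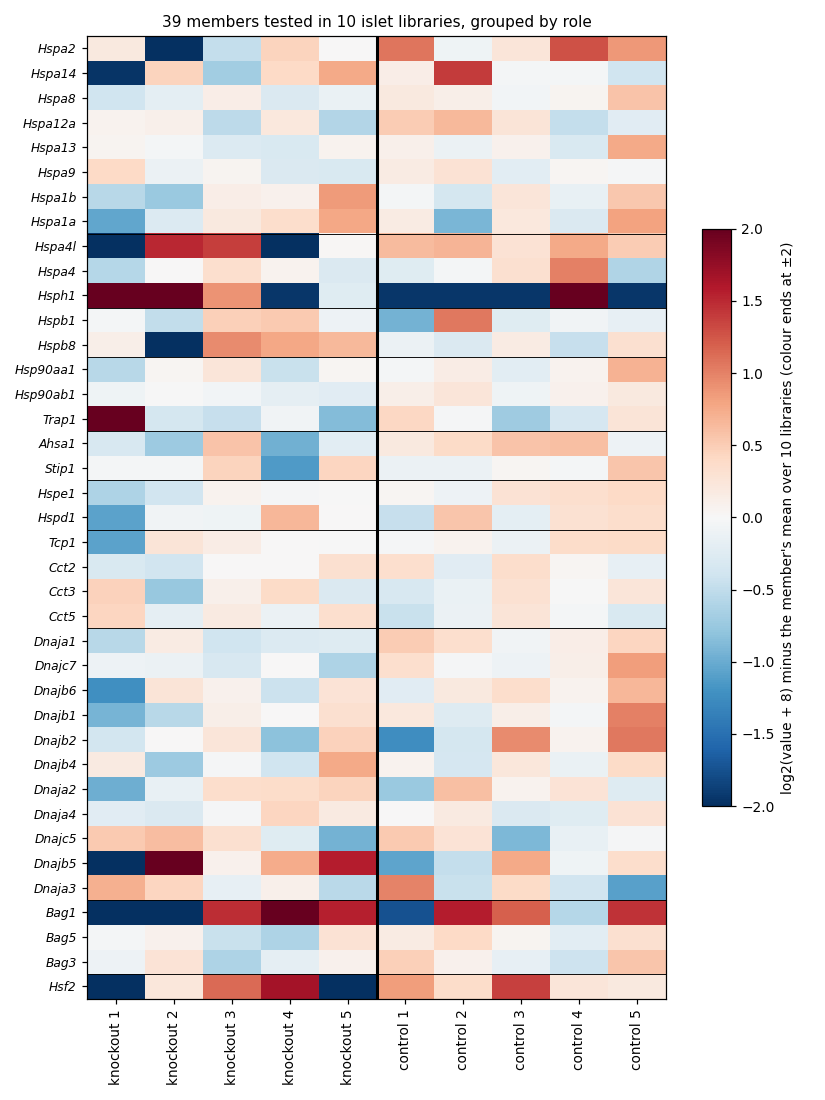
Log2(value + 8) of each of the 39 members in each library, less that member's mean over the 10 libraries, with knockouts left of the black line and controls right of it, and thin lines between roles. Control 5 is high for many Hsp70, Hsp90 and J-domain genes, and the strongest colours belong to members listed at 0 in some libraries, such as Hsph1, Bag1 and Hsf2.

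Other genes of the chaperone network were taken from a list of 44 symbols. Of these, 43 were tested, and 27 had negative and 16 positive differences around a median log2 value of -0.14. At an unadjusted p under 0.05 by limma, 2 were lower, among them Hsbp1, and 3 higher, Cct4, Unc45a and Bag2, and none passed after adjustment. Hsbp1, whose product binds and restrains HSF1, was 63.9, 152.3, 350.2, 51.8 and 466.4 in knockouts 1 to 5, against 567.9, 409.1, 228.1, 436.6 and 327.7 in controls 1 to 5. Unc45a, a myosin and Hsp90 co-chaperone, was 612 ± 361 in knockouts and 253 ± 69.6 in controls (SD, n = 5 each). The endoplasmic reticulum chaperones, 17 tested, had 12 lower, 5 higher and a median of -0.05, with none at an unadjusted p under 0.05 by limma. Hspa5 (BiP) was 23943 ± 1621 in knockouts and 27624 ± 5100 in controls.

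The immediate early genes, which respond quickly to calcium, growth factors or handling, had 28 of 33 lower in the knockouts and a median log2 difference of -0.61. At an unadjusted p under 0.05 by limma 8 were lower and 0 higher, beside 2.66% and 2.36% of all genes tested. None passed after adjustment. The groups of 2, Srf and Dusp5, did not overlap, beside 0.862% of all genes tested. The mean log2 value of the immediate early genes ran from 7.48 to 8.53 in knockouts and from 8.05 to 8.85 in controls. With that mean as a covariate, the log2 difference was -0.63 for Dnaja1, -0.29 for Hspa8 and -0.29 for Hsp90ab1, and the median of the stress-induced members became 0.08. The acinar markers had 25 of 26 lower and a median of -0.91, and with their mean as a covariate the 3 genes were at -0.55, -0.30 and -0.24 in the same order. Of 9 ductal markers 6 were lower and 3 higher, with log2 differences from -1.23 to 0.73 (median -0.39). Krt8 was 3679 ± 436 in knockouts and 5079 ± 583 in controls (SD, n = 5 each). It was the 1 ductal marker whose groups did not overlap, beside 0.862% of all genes tested. Of 13 β-cell markers 12 were lower, with a median of -0.21 near that of the members, and their mean log2 value ran from 12.34 to 12.50 in knockouts and from 12.39 to 12.72 in controls. The glucose transporter gene Slc2a2 was 2120 ± 514 in knockouts and 2923 ± 299 in controls (SD, n = 5 each; limma, unadjusted p = 0.0103, adjusted p = 0.942). All 4 δ- and PP-cell markers were lower, with a median of -0.20. Not every list went this way. Of 12 endothelial markers 9 were higher and 3 lower (median 0.11), and the groups of 1 did not overlap. Of 6 α-cell markers 3 were higher and 3 lower (median 0.09), and of 7 stromal markers 4 were higher and 3 lower (median 0.01). Of 10 immune markers 7 were lower and 3 higher (median -0.09). In whole islets, fewer cells of a type and less RNA per cell cannot be told apart, and beyond the 2 covariates the part of these genes in the chaperone values was not tested.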

How the data were processed

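Islet RNA from 5 knockout and 5 control libraries was depleted of ribosomal RNA and sequenced with a stranded random-primed kit, per the labels' protocols. STAR 2.4.0.1, HTSeq and DESeq2 appear in the submitters' processing notes, with no roles attached. The build and annotation behind the counts are not given in the sources used here. Values as deposited are normalized counts per gene, a signal on a common scale, which are not whole reads (25.0% to 37.2% of the values above 0 were whole multiples of the commonest low value, within 0.01). A count model was therefore not used. The deposited table also carries the authors' baseMean, log2 fold changes, test score and p-values, quoted only where named. Of 17946 rows, 1 without a gene name was left out (0.00774% to 0.0251% of a library), and 23 further names are date-like. All 41 members matched by symbol.

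The 11711 genes that reached 10 in 5 or more libraries were compared as log2(value + 8) with limma 3.58.1 in R 4.3.3, with trend and robust variance and Benjamini-Hochberg adjustment at 0.05. This scale understates changes of low genes. The fit was tested on simulated data. Alternatives were pseudocounts of 1 and 32, other filters, scalings and variance estimates, quality weights, 2 covariates, other classings of borderline members and left-out libraries. Omitting controls 2, 3 and 5 was added after seeing the data. The members, classes and lists were chosen with earlier results of these data known, so they have no test as sets. All members may be named; other genes are named for an unadjusted p under 0.05, high level or place in TRiC, Cct6a, Cct7 and Cct8 after their values were seen. Positions and transcript lengths come from GENCODE M21 (GRCm38), used for annotation only because the authors' build is unknown here. Python 3.11.15 with pandas 2.3.3, Biopython 1.88 and matplotlib 3.10.9 was used for sequences and figures.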

Additional observations from a re-analysis of the deposited data

Results flagged for a closer look

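In 11 of 82 sets of 5 libraries (41 members in each of the 2 groups), 1 library stood apart from the other 4 by Dixon's 95% criterion. Chance meets it in about 1 in 20 groups of normally distributed values. The criterion was applied to normalized counts without logs, which need not be normal, so that rate is only a rough guide here. That rate does not apply to 5 of the 11, for Hsph1, Cryab and Hsf1, where the other 4 libraries were all at 0. Among knockouts, Trap1 was 948.8 in knockout 1 beside at most 202.0 in the others, and Tcp1 was 333.3 in knockout 1 beside at least 703.6. Cryab was 17.4 in knockout 3 and Hsf1 61.2 in knockout 4, and both were listed at 0 in the other knockouts. Among controls, Hspa14 was 604.9 and Hspb1 566.7 in control 2, beside at most 246.1 and 255.5 in the others. Dnajb1 was 6638.8 and Stip1 707.0 in control 5, beside at most 3837.1 and 495.1. Hsph1 was 315.2 and Cryab 43.2 in control 4, and Hsf1 105.3 in control 3, each listed at 0 in the other controls. What sets these libraries apart was not tested.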

How the results depend on the processing

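No paired analysis was possible because the labels give no replicate numbers shared between the groups. No member passed an adjusted p of 0.05 by limma under any alternative, and the lowest adjusted p was 0.679, for Dnaja1 with the immediate early covariate. Dnaja1, Hspa8 and Hsp90ab1 stayed below 0 under every alternative run. So did other members, among them Ahsa1, Hsp90aa1, Hspe1 and Dnajc7, whose unadjusted p in the main limma fit was above 0.05. The 3 were picked by p from these same values, so their kept sign is not separate support. The count of all genes called, 0 as reported, was 1 without trend and robust variance, 1 without controls 2 and 5, 4 without controls 2, 3 and 5, and 0 to 1 with single libraries left out (1 without control 1). The count of members at an unadjusted p under 0.05 by limma, 3 as reported, was 0 without trend and robust variance. It was 1 without controls 2 and 5 and 1 without controls 2, 3 and 5, Dnaja1 each time. With single libraries left out it was 2 to 5 (5 without knockout 1). These counts join both directions. Without knockout 1, Dnajb5 was higher and 4 members lower. Hsph1 was higher, beside 3 lower members each time, without knockout 4, without control 4 and with the acinar covariate. The stress-induced median was 0.085 with the immediate early covariate, 0.022 without controls 2, 3 and 5, and -0.27 to 0.081 with single libraries left out. The constitutive median was -0.11 with the immediate early covariate and -0.24 to -0.12 with single libraries left out, and the median of all members -0.25 to -0.13. The difference of class medians was -0.059 with the 5 borderline members as stress-induced and -0.038 to 0.30 with single libraries left out. The choice to omit controls 2, 3 and 5 was made after seeing the data.

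Log2 differences of single members that turned in sign are given here. With the acinar covariate they were 0.020 for Hspa1b, 0.023 for Hspa4, -0.098 for Hspb1, -0.021 for Trap1, -0.024 for Dnaja2 and -0.038 for Dnaja4. With the immediate early covariate they were 0.31 for Hspa1b, 0.10 for Hspa4, -0.53 for Trap1, 0.23 for Hspd1, -0.25 for Dnaja3, 0.0057 for Dnajb1, 0.31 for Dnajb2, -0.41 for Dnajc5, 1.61 for Bag1, 0.20 for Cct3 and 0.0093 for Tcp1. With a pseudocount of 1 Dnajb5 was -0.33, and with quality weights Trap1 was -0.086 and Stip1 0.031. With trimmed mean scaling Hspa1a was -0.031, Dnaja2 -0.013 and Dnaja4 -0.010. Without controls 2 and 5 Hspa1a was -0.023, Hspd1 0.0064 and Dnaja3 -0.22. Without controls 2, 3 and 5 Hspa1b was 0.056, Dnaja3 -0.19, Dnajb2 0.49, Dnajc5 -0.13, Bag1 0.78, Stip1 0.013 and Cct3 0.15. The cause of these turns was not tested.

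With single libraries left out, ranges that crossed 0 were -0.22 to 0.27 for Hspa1a, -0.31 to 0.085 for Hspa1b, -0.67 to 0.015 for Hspa14, -0.35 to 0.053 for Hspa4, -0.072 to 0.43 for Hspb1, -0.063 to 0.70 for Hspb8, -0.36 to 0.39 for Trap1, -0.41 to 0.021 for Hspd1, -0.16 to 0.27 for Dnaja2, -0.028 to 0.49 for Dnaja3, -0.077 to 0.10 for Dnaja4, -0.52 to 0.049 for Dnajb2, -0.28 to 0.087 for Dnajb4, -0.27 to 1.20 for Dnajb5, -0.10 to 0.36 for Dnajc5, -1.44 to 0.054 for Bag1, -0.26 to 0.14 for Stip1 and -0.16 to 0.15 for Cct3. Depth limits the members listed at 0, and whole reads could not be recovered, so no counting interval was given.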
